A study of Mus musculus with 12 samples.

Results

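Chemokines and their receptors were described from RNA-seq values of mouse bone marrow MSC cultures. Members were the protein-coding genes of GENCODE M21 whose symbol is Ccl, Cxcl, Cx3cl, Xcl, Ccr, Cxcr, Cx3cr, Xcr or Ackr followed by a number, with Cxcl12 left out. Described here are 65 such genes of the 54532 in the table, 43 ligands and 22 receptors. Of these, 26 (18 ligands and 8 receptors) reached 1 FPKM or more in 3 or more of the 12 libraries, where FPKM is the number of fragments per kilobase of a gene with sequencing depth divided out. A further 27 were above 0 but under that filter, and 12 were listed at 0 in all 12 libraries. The cells were MSCs at passage 3 from C57BL/6 mice aged 4 weeks, either Chd7fl/fl (control) or Prx1-cre;Chd7fl/fl (labelled knockout). In the latter, Cre comes from a promoter that is active in early limb mesenchyme and removes exon 2 of Chd7. Both genotypes were cultured for 5 days either in osteogenic medium, which contained β-glycerophosphate (10 mM), dexamethasone (10 nM) and ascorbic acid (50 µM), or in adipogenic medium, which contained dexamethasone (1 µM), isobutylmethylxanthine (0.5 µM) and insulin (10 µg/ml). Each of the 4 groups had 3 libraries, and the fragments recovered for all genes together numbered 17496340 to 21099602 in a library.

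Chemokines are small secreted proteins that direct the migration of leukocytes along a gradient. They act on receptors coupled to G proteins of the Gi class, while atypical receptors bind chemokines without that coupling and can remove them from the surroundings. In bone marrow, chemokines guide monocytes, neutrophils and precursors of osteoclasts, and many inflammatory ligands are made by macrophages and stromal cells after stimulation through NF-kB.

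Chd7 (ENSMUSG00000041235) was read first as a check of the labels. In osteogenic medium it had 2.64, 2.67 and 2.77 FPKM in control and 2.03, 2.35 and 2.28 FPKM in labelled knockout libraries 1 to 3. In adipogenic medium it had 2.26, 1.81 and 2.23 FPKM in control and 2.03, 2.35 and 2.48 FPKM in labelled knockout libraries. The genotypes did not overlap in osteogenic medium and overlapped in adipogenic medium, and neither difference passed (limma adjusted p = 0.160 and 0.428, or 0.0534 and 0.870 without control library 2 of adipogenic medium). With adipogenic medium the knockout label thus went without a lower level of Chd7, and libraries are called by their labels throughout. A value for the whole gene does not read exon 2 alone.

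Control library 2 in adipogenic medium stood apart from the rest of its group. Across genes, which are not independent replicates, its Pearson r on log2(FPKM + 1) was 0.939 with control library 1 and 0.943 with control library 3 of that medium, while those 2 libraries had an r of 0.989 with each other. Its r with the 6 osteogenic libraries was 0.980 to 0.984. The differences and counts of calls of the comparisons are therefore also given without it. To a lesser degree, labelled knockout library 1 of adipogenic medium also stood apart. Its r was 0.980 and 0.981 with libraries 2 and 3 of its group, which had an r of 0.992 with each other. No label says whether the libraries of a group came from separate mice, so p-values measure the spread between these libraries. Whether labels were exchanged between libraries was not tested, and every difference of genotype or medium is one between labels.

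The cell type label was compared with marker genes. All 18 macrophage markers passed the filter, and their summed FPKM was 17972, 18493 and 18530.0 in control and 19281, 18972 and 18787 in labelled knockout libraries of osteogenic medium. In adipogenic medium that sum was 22268, 12578 and 21908 in control and 11872, 10314 and 10550.2 in labelled knockout libraries 1 to 3. Lyz2 was the most abundant of them, followed by Ctss and C1qb, and none was at 0. The summed FPKM of the 14 mesenchymal markers, of which 12 passed and Col1a1 was the most abundant, was 1351 to 2031 over the 12 libraries. RNA of macrophage markers was thus abundant in every library labelled MSC. In bulk samples, fewer cells of a type and less RNA per cell cannot be told apart.

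The summed level of the ligands was uneven across libraries. Summed over all 43 ligands, FPKM was 355, 379.7 and 388 in control and 416, 452 and 439 in labelled knockout libraries of osteogenic medium. In adipogenic medium the ligand sum was 2092, 369 and 2026 in control and 1119, 449 and 484 in labelled knockout libraries 1 to 3. Control libraries 1 and 3 were the highest, labelled knockout library 1 came next, and the other 3 adipogenic libraries lay close to the osteogenic ones. Summed over the 22 receptors, FPKM was 85.5 to 97.9 in the 6 osteogenic libraries, and in adipogenic medium 26.7, 55.4 and 24.5 in control and 36.4, 56.2 and 56.2 in labelled knockout libraries. The receptor sum was thus lowest where the ligand sum was highest. Most of it came from Cxcr4 and Ccr1, so it does not describe receptors as a class. Of the 8 receptors past the filter, Ackr4, Cxcr4 and Cxcr6 had their 2 lowest values in control libraries 1 and 3 of adipogenic medium. Ccr3 had its 2 highest there. By the mean over 12 libraries, Ccl7 was the most abundant ligand and Cxcr4 the most abundant receptor. In control libraries 1 and 3 of adipogenic medium Ccl2 lay above Ccl7, and in those 2 and the 3 labelled knockout libraries of osteogenic medium Ccr1 lay above Cxcr4.

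**Figure D1:**
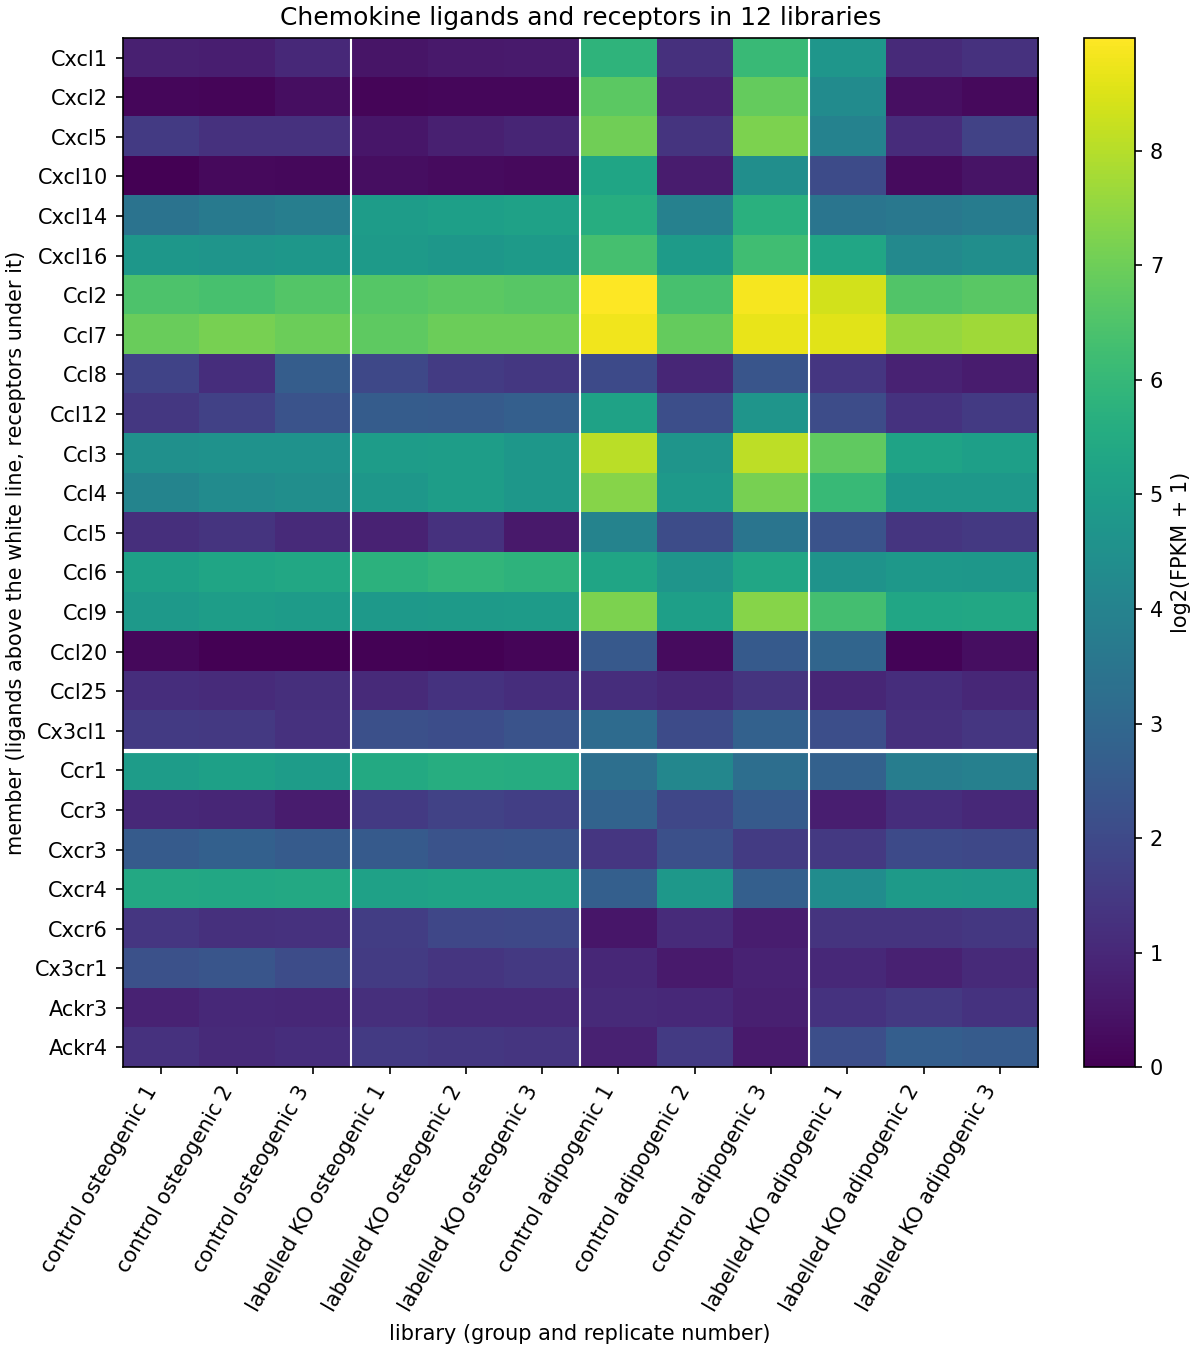
Level of the 26 members past the filter as log2(FPKM + 1), shown by colour, for 12 libraries in columns. For 14 of 18 ligands, and for 19.6% of the 12871 genes past the filter, the 2 highest values were those of control libraries 1 and 3 of adipogenic medium.

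Control libraries 1 and 3 of adipogenic medium held the 2 highest values of the 12 for 14 of the 18 ligands (19.6% of all genes past the filter did), the exceptions being Ccl6, Ccl8, Ccl20 and Ccl25. Cxcl2, Cxcl10 and Ccl20 reached 1 FPKM in adipogenic libraries alone, and without them the count was 12 of 15. Cxcl1, which is among these 15, reached it in no osteogenic library but control library 3 (1.03 FPKM). It too passed the filter only through adipogenic libraries. Of the 8 receptors, Ccr3 had its 2 highest values there, while Ackr4, Cxcr4 and Cxcr6 had their 2 lowest (14.6% of all genes did). The ligands above all osteogenic libraries numbered 15, 7 and 16 of 18 in control libraries 1 to 3 of adipogenic medium (beside 32.1%, 19.1% and 32.0% of all genes). In labelled knockout libraries 1 to 3 they numbered 12, 6 and 8 (beside 30.5%, 26.8% and 29.0%). The 18 ligands include Cxcl1, Cxcl2, Cxcl10 and Ccl20, for which the filter favours a place above the osteogenic libraries. These counts are therefore a description.

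**Figure D2:**
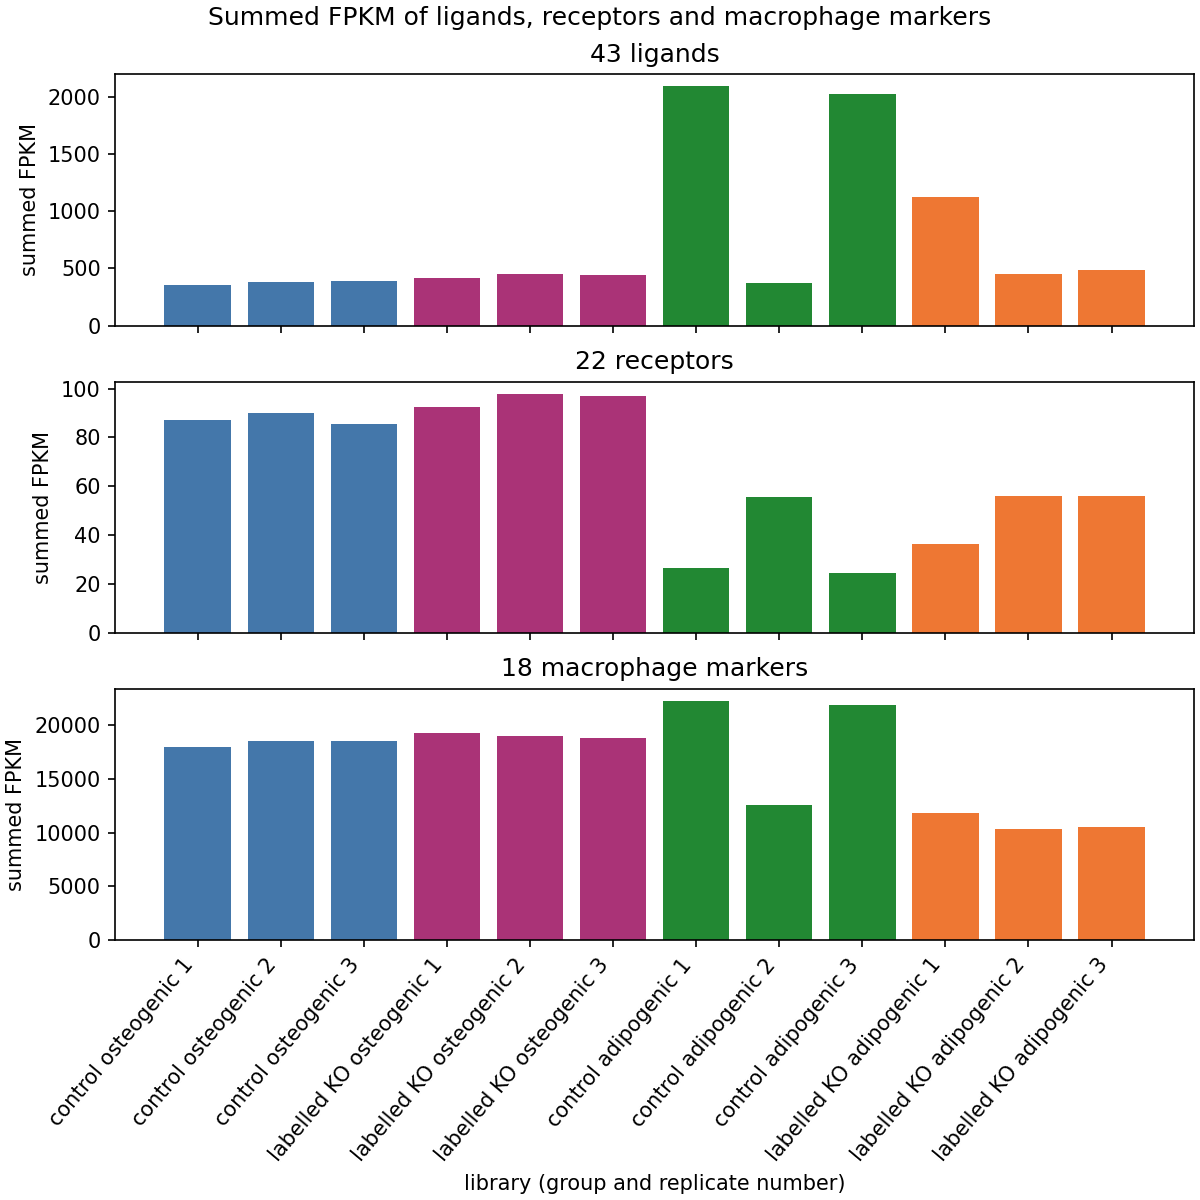
Summed FPKM in each library (bars, linear axes from 0) of 43 ligands, 22 receptors and 18 macrophage markers. The ligand sum reached 2092 and 2026 in control libraries 1 and 3 of adipogenic medium, where the receptor sum was lowest, at 26.7 and 24.5. Most of the receptor sum came from Cxcr4 and Ccr1.

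CXC ligands with an ELR motif attract neutrophils through Cxcr2. Their first member here was Cxcl1 (ENSMUSG00000029380). In osteogenic medium Cxcl1 averaged 0.820 ± 0.180 FPKM for control and 0.511 ± 0.0868 FPKM for labelled knockout libraries (SD, n = 3 each). In adipogenic medium Cxcl1 had 56.7, 1.35 and 67.4 FPKM in control and 25.6, 1.08 and 1.46 FPKM in labelled knockout libraries 1 to 3. Cxcl1 was thus high in 3 of the 6 adipogenic libraries, and the genotypes overlapped. Cxcl2 (ENSMUSG00000058427) was near the limit of detection in osteogenic medium, with 0.0808 to 0.274 FPKM in the 6 libraries. In adipogenic medium Cxcl2 had 105, 0.809 and 114 FPKM in control and 19.3, 0.282 and 0.178 FPKM in labelled knockout libraries 1 to 3. It was high in the same 3 libraries.

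Cxcl5 (ENSMUSG00000029371) is the third ELR ligand past the filter. In osteogenic medium Cxcl5 averaged 1.59 ± 0.241 FPKM for control and 0.681 ± 0.220 FPKM for labelled knockout libraries (SD, n = 3 each). In adipogenic medium Cxcl5 had 131, 1.56 and 148 FPKM in control and 15.0, 1.20 and 2.43 FPKM in labelled knockout libraries 1 to 3. The same 3 libraries were high for Cxcl1, Cxcl2 and Cxcl5. None of these 3 ligands passed in any of the 5 comparisons (limma adjusted p of 0.0518 or more). With control library 2 of adipogenic medium left out, all 3 passed for the genotypes in adipogenic medium and for the dependence on medium, and Cxcl1 and Cxcl5 for the media in control cells (adjusted p up to 0.0429). The filter favours the direction of Cxcl1 between media, so no conclusion is drawn from its call there.

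Promoters of the members were searched for short motifs on both strands, from 250 bases before to 50 bases after the start of transcription in RefSeq. Of the 26 members, 20 had a promoter in the table. The kB core GGANTTTCC was found in 4 of the 20, against 1.45% of all 27025 genes with a promoter there, the interferon response core GAAANNGAA in 3, against 9.76%, and the AP-1 motif TGANTCA in 3, against 8.97%. The kB core lay at -70 from the start in Cxcl1, at -96 in Cxcl2, at -158 in Cxcl10 and at -179 in Ccr3. An interferon response core was found in Ccl3, Cxcl10 and Cxcl14, and AP-1 in Ccl9, Ccr3 and Cxcl10. A match describes the sequence only. The 4 promoters with a kB core are printed 5′ to 3′ on the strand of the gene, with the core in capitals, to show where the members that share this motif carry it. Their 2 highest values lay in control libraries 1 and 3 of adipogenic medium, as did those of 15 of the 26 members in all, so that trait does not set them apart. In GRCm38.p6 they lie at chr5:90890995-90891294 for Cxcl1 and chr5:90903649-90903948 for Cxcl2, both on the plus strand, at chr5:92348840-92349139 on the minus strand for Cxcl10 and at chr9:124021721-124022020 on the plus strand for Ccr3.
Cxcl1: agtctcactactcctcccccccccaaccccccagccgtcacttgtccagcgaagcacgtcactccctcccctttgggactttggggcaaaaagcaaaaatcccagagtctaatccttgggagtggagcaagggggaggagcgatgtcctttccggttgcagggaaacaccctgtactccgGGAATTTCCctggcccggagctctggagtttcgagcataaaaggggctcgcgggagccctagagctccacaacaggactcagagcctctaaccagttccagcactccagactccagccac
Cxcl2: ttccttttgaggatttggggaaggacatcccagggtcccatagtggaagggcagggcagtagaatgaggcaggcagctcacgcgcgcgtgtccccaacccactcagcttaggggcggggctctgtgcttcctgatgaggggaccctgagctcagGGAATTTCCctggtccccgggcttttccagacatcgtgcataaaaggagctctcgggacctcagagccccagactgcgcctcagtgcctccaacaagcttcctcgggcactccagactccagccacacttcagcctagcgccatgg
Cxcl10: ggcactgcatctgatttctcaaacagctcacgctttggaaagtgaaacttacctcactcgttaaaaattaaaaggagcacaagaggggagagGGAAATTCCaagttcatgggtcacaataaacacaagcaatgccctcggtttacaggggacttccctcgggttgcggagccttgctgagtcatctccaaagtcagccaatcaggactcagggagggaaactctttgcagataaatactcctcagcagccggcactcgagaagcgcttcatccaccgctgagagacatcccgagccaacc
Ccr3: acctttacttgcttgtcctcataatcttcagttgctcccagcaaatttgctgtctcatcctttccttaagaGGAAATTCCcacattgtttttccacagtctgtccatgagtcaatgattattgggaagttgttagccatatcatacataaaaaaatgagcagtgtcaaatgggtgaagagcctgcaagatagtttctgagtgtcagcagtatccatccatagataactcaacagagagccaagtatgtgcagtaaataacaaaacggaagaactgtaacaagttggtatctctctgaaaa

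Cxcl10 (ENSMUSG00000034855), which interferons induce and which binds Cxcr3, had 0.0245, 0.158 and 0.151 FPKM in control and 0.247, 0.196 and 0.171 FPKM in labelled knockout libraries 1 to 3 of osteogenic medium. In adipogenic medium Cxcl10 had 38.2, 0.615 and 20.9 FPKM in control and 3.14, 0.212 and 0.397 FPKM in labelled knockout libraries. All 3 control libraries of adipogenic medium lay above all osteogenic ones, library 2 by far less than libraries 1 and 3.

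**Figure D3:**
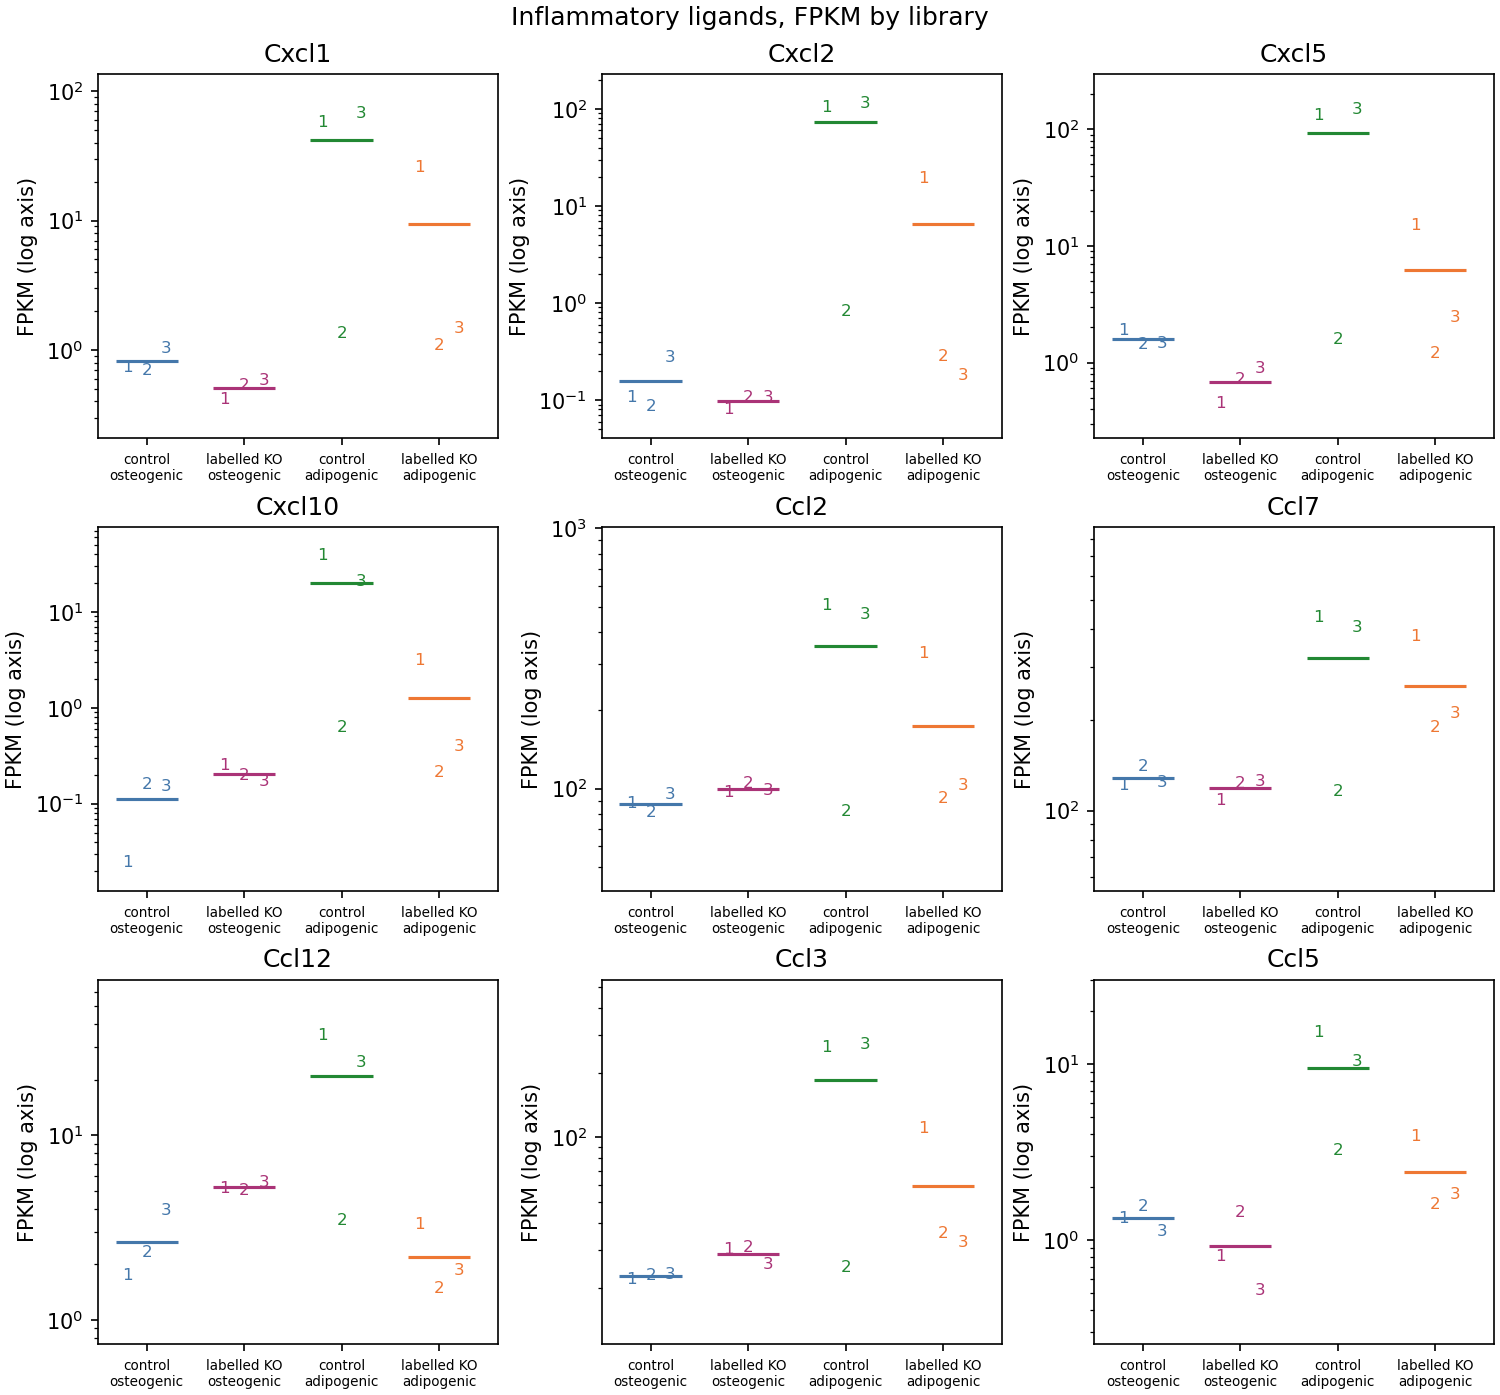
FPKM of 9 inflammatory ligands in each library on log axes, with digits for the replicate number and lines for the mean of 3 libraries. In adipogenic medium control libraries 1 and 3 were highest for each of them, as for Ccl2 with 506 and 468 FPKM against 81.7 FPKM in control library 2.

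Cxcl14 (ENSMUSG00000021508), a CXC chemokine made constitutively in many tissues, reached 9.69, 11.7 and 13.3 FPKM in control and 30.1, 32.6 and 34.6 FPKM in labelled knockout libraries 1 to 3 of osteogenic medium. In adipogenic medium Cxcl14 reached 47.4, 14.4 and 51.4 FPKM in control and 10.2, 11.1 and 12.6 FPKM in labelled knockout libraries. The genotypes did not overlap in either medium, and the labelled knockout was higher in osteogenic and lower in adipogenic medium.

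Cxcl16 (ENSMUSG00000018920), a ligand of Cxcr6 that also occurs bound to the cell membrane, was measured at 26.3, 24.9 and 25.8 FPKM in control and 28.6, 26.3 and 28.5 FPKM in labelled knockout libraries 1 to 3 of osteogenic medium. In adipogenic medium Cxcl16 was measured at 79.4, 29.7 and 74.8 FPKM in control and 39.0, 17.6 and 20.6 FPKM in labelled knockout libraries. Labelled knockout library 1 lay above control library 2, so the genotypes overlapped there. Exons of Zmynd15 on the opposite strand cover 18.3% of the exons of Cxcl16, and since the use of strand is not given in the sources used here, fragments of both genes cannot be told apart in that stretch.

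Ligands of Ccr2 recruit monocytes. Ccl2 (ENSMUSG00000035385) is the best known of them. In osteogenic medium Ccl2 averaged 87.6 ± 6.93 FPKM for control and 99.9 ± 4.49 FPKM for labelled knockout libraries (SD, n = 3 each). In adipogenic medium Ccl2 had 506, 81.7 and 468 FPKM in control and 329, 91.9 and 103 FPKM in labelled knockout libraries 1 to 3. As for Cxcl1, control libraries 1 and 3 and labelled knockout library 1 were high. Ccl7 (ENSMUSG00000035373), the ligand of highest mean, averaged 128 ± 10.3 and 119 ± 9.09 FPKM in osteogenic medium and 320.3 ± 177 and 259 ± 104 FPKM with adipogenic medium, control first (SD, n = 3 each). Ccl8 (ENSMUSG00000009185) averaged 3.03 ± 2.07 and 2.17 ± 0.588 FPKM in osteogenic medium and 2.75 ± 1.67 and 1.04 ± 0.555 FPKM with adipogenic medium, control first (SD, n = 3 each), from 6 to 48 fragments per library. None of Ccl2, Ccl7 and Ccl8 passed in any of the 5 comparisons (limma adjusted p of 0.0975 or more). With control library 2 of adipogenic medium left out, Ccl2 and Ccl7 passed in 3 comparisons each and Ccl8 in 1 (adjusted p up to 0.0234).

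Ccl12 (ENSMUSG00000035352), another ligand of Ccr2, had 1.75, 2.33 and 3.90 FPKM in control and 5.18, 5.04 and 5.52 FPKM in labelled knockout libraries 1 to 3 of osteogenic medium. In adipogenic medium Ccl12 had 34.8, 3.47 and 24.9 FPKM in control and 3.27, 1.48 and 1.86 FPKM in labelled knockout libraries. The genotypes did not overlap in either medium, with opposite order, although control library 2 and labelled knockout library 1 of adipogenic medium lay next to each other.

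Ligands of Ccr1 attract monocytes and precursors of osteoclasts. Ccl3 (ENSMUSG00000000982) is one of them. In osteogenic medium Ccl3 averaged 22.6 ± 0.607 FPKM for control and 28.9 ± 2.69 FPKM for labelled knockout libraries (SD, n = 3 each). In adipogenic medium Ccl3 had 262, 24.9 and 269.8 FPKM in control and 111, 35.8 and 32.4 FPKM in labelled knockout libraries 1 to 3. The genotypes overlapped there, and Ccl3 passed in no comparison (limma adjusted p of 0.0546 or more), whereas it passed in 3 without control library 2 of adipogenic medium (adjusted p up to 0.00334).

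Ccl4 (ENSMUSG00000018930), an inflammatory CC ligand related to Ccl3, was measured at 15.5, 19.2 and 20.6 FPKM in control and 26.0, 31.1 and 26.2 FPKM in labelled knockout libraries 1 to 3 of osteogenic medium. In adipogenic medium Ccl4 was measured at 162, 28.1 and 140.2 FPKM in control and 65.4, 26.7 and 26.6 FPKM in labelled knockout libraries. Control library 2 lay between labelled knockout library 1 and labelled knockout libraries 2 and 3.

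Ccl5 (ENSMUSG00000035042), which binds Ccr1 and attracts T cells and monocytes, had 1.32, 1.55 and 1.12 FPKM in control and 0.812, 1.44 and 0.515 FPKM in labelled knockout libraries 1 to 3 of osteogenic medium. In adipogenic medium Ccl5 had 15.0, 3.23 and 10.4 FPKM in control and 3.88, 1.60 and 1.81 FPKM in labelled knockout libraries. Labelled knockout library 1 was above control library 2, and every adipogenic library was above the osteogenic libraries of its genotype.

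Ccl6 (ENSMUSG00000018927), a rodent ligand of Ccr1, reached 33.1, 38.0 and 40.7 FPKM in control and 53.4, 58.8 and 55.5 FPKM in labelled knockout libraries 1 to 3 of osteogenic medium. In adipogenic medium Ccl6 reached 38.1, 24.8 and 39.1 FPKM in control and 23.3, 26.5 and 26.3 FPKM in labelled knockout libraries. Its highest values lay in the labelled knockout libraries of osteogenic medium, where the genotypes did not overlap.

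Ccl9 (ENSMUSG00000019122), also a rodent ligand of Ccr1, had 27.8, 30.8 and 29.2 FPKM in control and 28.1, 28.7 and 29.8 FPKM in labelled knockout libraries 1 to 3 of osteogenic medium. In adipogenic medium Ccl9 had 149, 32.6 and 162 FPKM in control and 78.0, 39.3 and 40.8 FPKM in labelled knockout libraries. The genotypes overlapped in both media, and all adipogenic libraries were above the osteogenic libraries of their genotype.

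Of the remaining CC ligands, Ccl20 (ENSMUSG00000026166), the ligand of Ccr6, had 0 to 0.155 FPKM in the 6 osteogenic libraries. In adipogenic medium Ccl20 had 4.75, 0.202 and 4.78 FPKM in control and 6.67, 0.0747 and 0.259 FPKM in labelled knockout libraries 1 to 3. It was high in control libraries 1 and 3 and labelled knockout library 1. Ccl25 (ENSMUSG00000023235), the ligand of Ccr9, averaged 1.25 ± 0.0901 and 1.27 ± 0.184 FPKM in osteogenic medium and 1.27 ± 0.293 and 1.08 ± 0.150 FPKM with adipogenic medium, control first (SD, n = 3 each). Neither passed in any comparison (limma adjusted p of 0.123 or more).

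Cx3cl1 (ENSMUSG00000031778), a membrane-anchored ligand of Cx3cr1, had 1.87, 1.79 and 1.43 FPKM in control and 3.54, 3.35 and 3.95 FPKM in labelled knockout libraries 1 to 3 of osteogenic medium. In adipogenic medium Cx3cl1 had 7.73, 3.12 and 5.84 FPKM in control and 3.48, 1.39 and 1.65 FPKM in labelled knockout libraries. As with Cxcl14, the labelled knockout was higher in osteogenic medium, and in adipogenic medium the genotypes overlapped only through control library 2 and labelled knockout library 1.

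Ccr1 (ENSMUSG00000025804), a receptor of monocytes and osteoclast precursors, was measured at 30.4, 33.3 and 30.4 FPKM in control and 42.8, 46.9 and 46.0 FPKM in labelled knockout libraries 1 to 3 of osteogenic medium. In adipogenic medium Ccr1 was measured at 8.70, 16.8 and 8.41 FPKM in control and 5.85, 12.9 and 14.2 FPKM in labelled knockout libraries. Every adipogenic library was below every osteogenic one. Its 3 lowest values lay in control libraries 1 and 3 and labelled knockout library 1 of adipogenic medium. In these 3 libraries its ligands Ccl3, Ccl5 and Ccl9 were highest. Its ligand Ccl6 was not, with its highest values in labelled knockout libraries of osteogenic medium (53.4, 58.8 and 55.5 FPKM). Ccl6 was lowest in labelled knockout library 1 of adipogenic medium (23.3 FPKM).

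Ccr3 (ENSMUSG00000035448), the receptor by which eosinophils follow eotaxins, had 1.03, 0.945 and 0.588 FPKM in control and 1.91, 2.38 and 2.15 FPKM in labelled knockout libraries 1 to 3 of osteogenic medium. In adipogenic medium Ccr3 had 6.21, 2.80 and 4.87 FPKM in control and 0.684, 1.25 and 1.05 FPKM in labelled knockout libraries. The genotypes did not overlap in either medium and lay in opposite order, with 34 to 334 fragments per library. Its eotaxin ligands Ccl11 and Ccl24 were under the filter, with at most 0.114 and 0.212 FPKM.

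Cxcr3 (ENSMUSG00000050232), the receptor of Cxcl9 and Cxcl10, was measured at 5.00, 5.70 and 5.03 FPKM in control and 4.89, 3.96 and 4.09 FPKM in labelled knockout libraries 1 to 3 of osteogenic medium. In adipogenic medium Cxcr3 was measured at 1.69, 3.53 and 1.96 FPKM in control and 1.78, 3.095 and 2.86 FPKM in labelled knockout libraries. Adipogenic libraries were lower than the osteogenic libraries of the same genotype.

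Cxcr4 (ENSMUSG00000045382), the receptor of the stromal chemokine Cxcl12, reached 42.3, 41.1 and 41.7 FPKM in control and 34.7, 35.8 and 36.2 FPKM in labelled knockout libraries 1 to 3 of osteogenic medium. In adipogenic medium Cxcr4 reached 5.59, 26.95 and 5.67 FPKM in control and 19.8, 28.9 and 28.1 FPKM in labelled knockout libraries. Its lowest values lay in control libraries 1 and 3 of adipogenic medium, in which most ligands were highest.

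Cxcr6 (ENSMUSG00000048521), the receptor of Cxcl16, had 1.68, 1.39 and 1.44 FPKM in control and 2.10, 2.81 and 2.81 FPKM in labelled knockout libraries 1 to 3 of osteogenic medium. In adipogenic medium Cxcr6 had 0.473, 1.14 and 0.639 FPKM in control and 1.57, 1.57 and 1.72 FPKM in labelled knockout libraries. The labelled knockout was higher without overlap in both media, from 15 to 99 fragments per library.

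Cx3cr1 (ENSMUSG00000052336), the receptor of Cx3cl1 on monocytes and macrophages, was measured at 3.70, 4.19 and 3.30 FPKM in control and 1.94, 1.64 and 1.84 FPKM in labelled knockout libraries 1 to 3 of osteogenic medium. In adipogenic medium Cx3cr1 was measured at 1.00, 0.583 and 0.808 FPKM in control and 1.06, 0.789 and 1.12 FPKM in labelled knockout libraries. The control was higher without overlap in osteogenic medium, and in adipogenic medium the genotypes overlapped.

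Ackr3 (ENSMUSG00000044337), an atypical receptor that takes up Cxcl12, had 0.823, 1.05 and 0.997 FPKM in control and 1.30, 1.11 and 1.10 FPKM in labelled knockout libraries 1 to 3 of osteogenic medium. In adipogenic medium Ackr3 had 1.09, 1.04 and 0.719 FPKM in control and 1.48, 1.81 and 1.51 FPKM in labelled knockout libraries. The labelled knockout was higher without overlap in each medium.

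Ackr4 (ENSMUSG00000079355), an atypical receptor that takes up Ccl19, Ccl21 and Ccl25, had 1.41, 1.11 and 1.24 FPKM in control and 1.90, 1.75 and 1.62 FPKM in labelled knockout libraries 1 to 3 of osteogenic medium. In adipogenic medium Ackr4 had 0.792, 1.86 and 0.585 FPKM in control and 3.50, 5.43 and 5.02 FPKM in labelled knockout libraries. It too was higher in the labelled knockout without overlap in each medium, and in adipogenic medium its mean was 4.32 times that of control, or 6.76 times without control library 2. Exons of Acad11 on the opposite strand cover 8.90% of the exons of Ackr4.

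**Figure D4:**
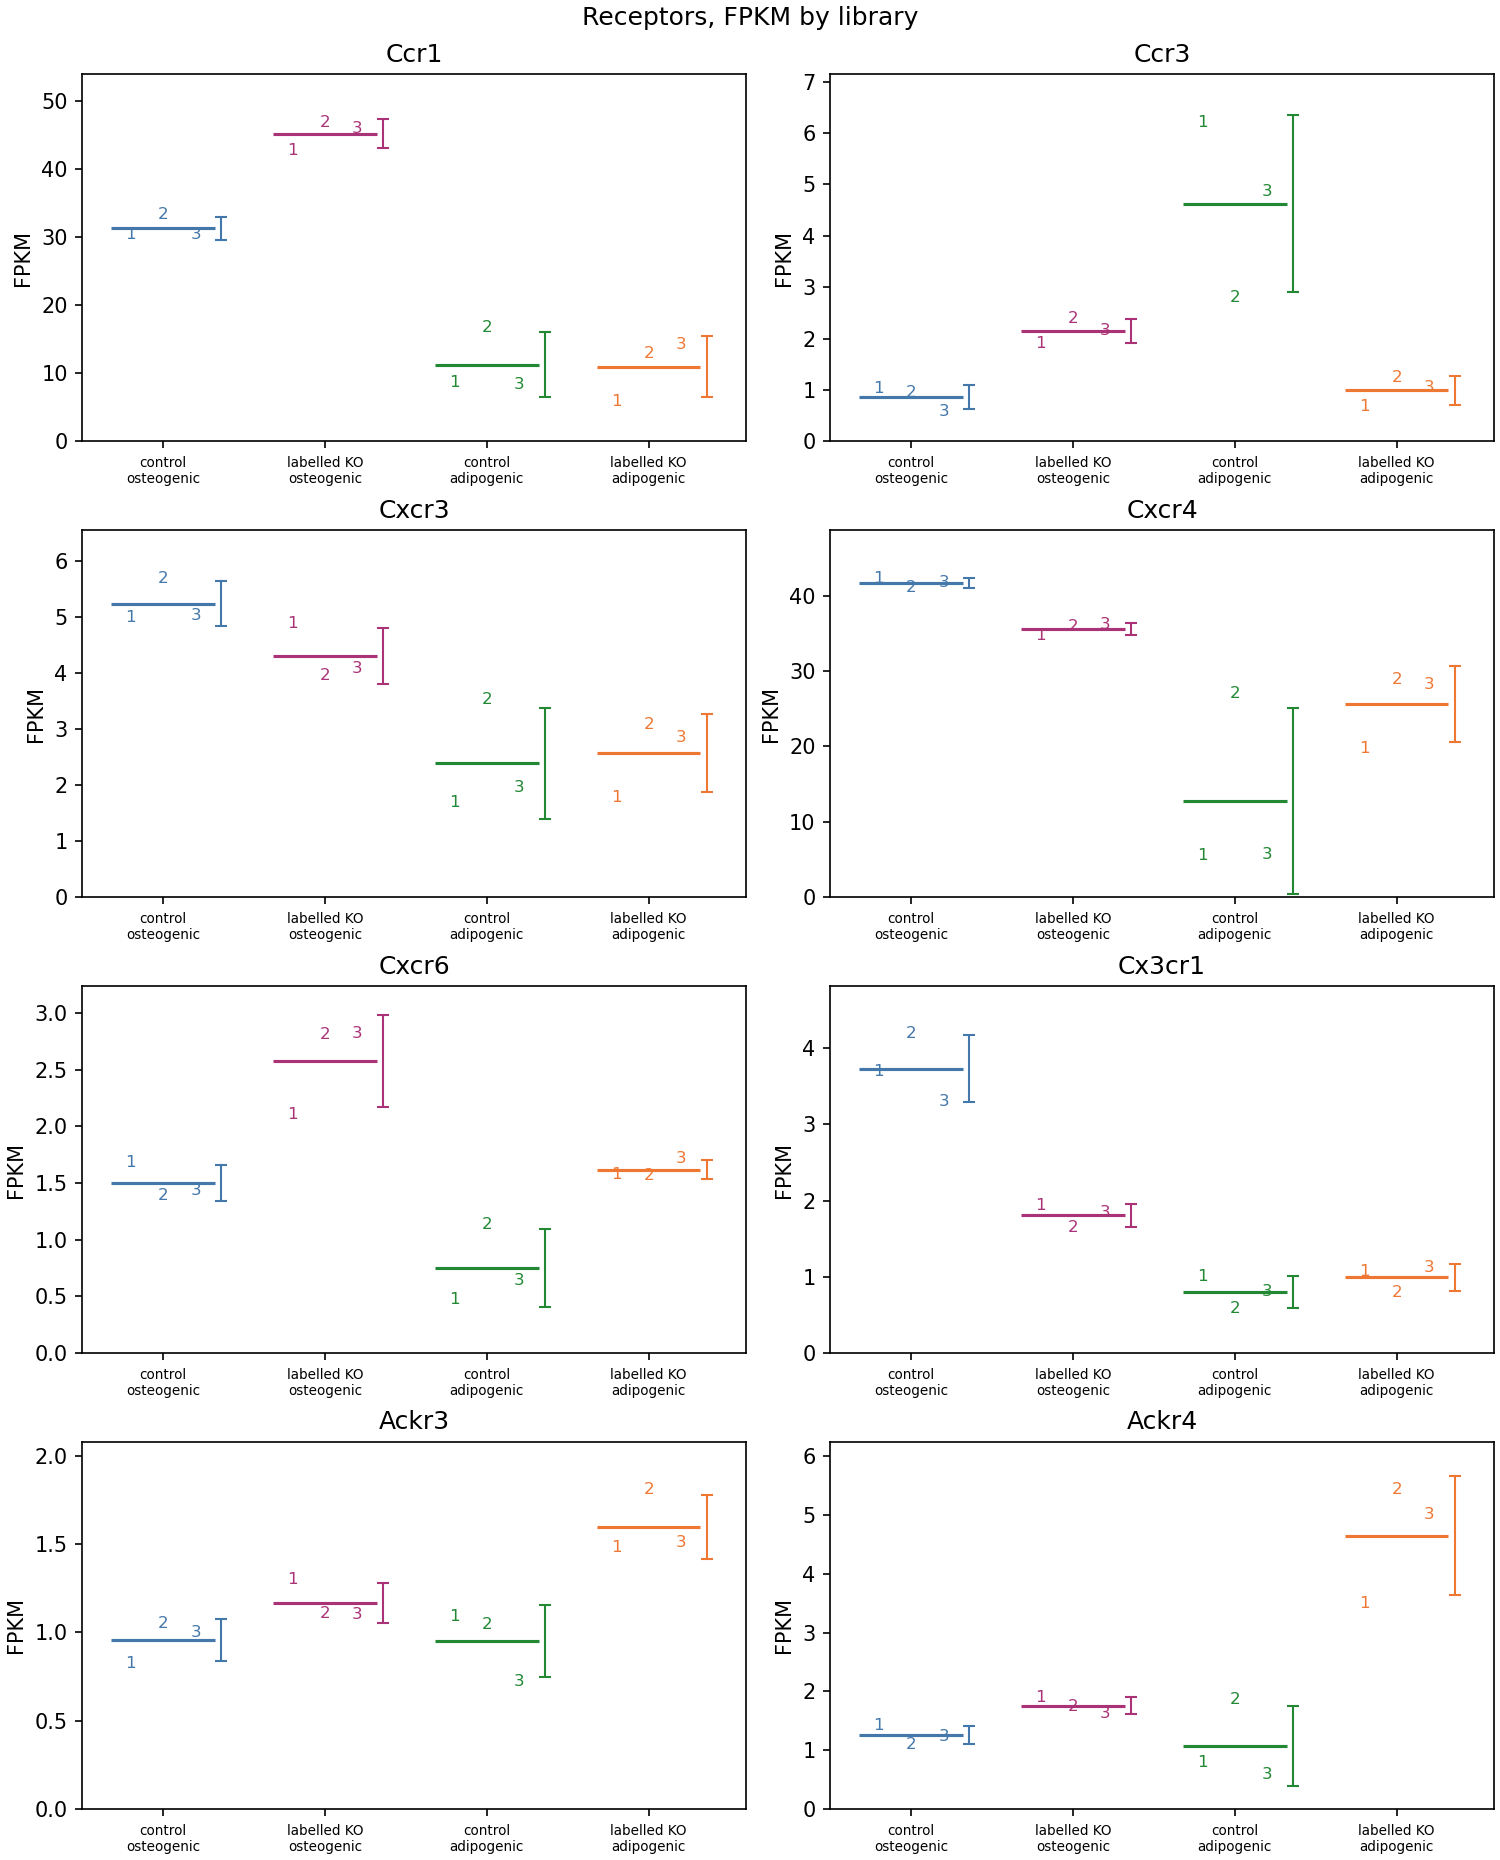
FPKM of the 8 receptors past the filter in each library on linear axes, with digits for the replicate number, lines for group means and bars for the SD of 3 libraries. Ccr3 was highest in control libraries of adipogenic medium (6.21, 2.80 and 4.87) and Ackr4 in labelled knockout libraries of that medium (3.50, 5.43 and 5.02).

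The first comparison asked how the genotypes differed in osteogenic medium. Cxcl14, Ccr3, Ccl6 and Cxcr6 were higher and Cx3cr1 was lower in the labelled knockout. Of the 26 members, 4 were called higher (4.94% of the 12871 genes tested were) and 1 was called lower (4.15% of genes were), at a limma adjusted p under 0.05. Cxcl14 rose by 1.42 on the log2(FPKM + 1) scale (SE 0.373, adjusted p = 0.0420), to 2.81 times the control mean. Ccr3 rose by 0.77 (adjusted p = 0.0479), Ccl6 by 0.58 (adjusted p = 0.0413) and Cxcr6 by 0.51 (adjusted p = 0.0422). Cx3cr1 had a difference of -0.75 (SE 0.109, adjusted p = 0.00255), the smallest adjusted p of the members here. The median difference was 0.11 over the 26 members and -0.00643 over all genes.

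The osteogenic call of Cx3cr1 was kept in each of the 12 fits that left out 1 library (adjusted p up to 0.0158). Those of Cxcl14, Ccr3, Ccl6 and Cxcr6 were each kept in 2 to 4 of the 12 fits (adjusted p up to 0.155), and all 4 were lost without any of control libraries 1 to 3 of osteogenic medium or without labelled knockout library 2 or 3 of either medium. Labelled knockout library 1 of osteogenic medium took away all of them but Cxcr6, labelled knockout library 1 of adipogenic medium all but Ccl6, and control library 3 of adipogenic medium Ccr3 and Cxcr6. Scaled to an equal sum of FPKM, Cxcr6 did not pass (adjusted p = 0.177) and 3 members were called higher and 1 lower, while the calls of all genes went from 636 higher and 534 lower to 268 and 241. With no filter all 4 higher calls were lost (adjusted p up to 0.109), with voom those of Cxcl14 and Ccr3 (adjusted p up to 0.0819) and with a pseudocount of 0.1 that of Cxcr6 (adjusted p = 0.0980). A replicate block also took away all 4 higher calls (limma adjusted p up to 0.131). Within the 6 osteogenic libraries alone, 10 members were called higher and 3 lower, against 1677 and 1741 of all genes. When control library 2 of adipogenic medium was left out, which left the differences as they were, 6 members were called higher and 1 lower, against 1469 and 1385 of all genes. Of the 18 macrophage markers, 1 was called higher and 4 lower for the genotypes in osteogenic medium, or 2 higher and 7 lower without that library and 2 lower under scaling to an equal sum of FPKM.

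The second comparison asked how the genotypes differed in adipogenic medium. Of the 26 members, 6 were called lower in the labelled knockout (16.5% of the genes tested were) and 4 higher (16.7% of genes were), shares near those of all genes. The lower ones were the ligands Ccl12, Ccl5, Cx3cl1, Cxcl14 and Cxcl16 and the receptor Ccr3, and the higher ones were the receptors Ackr3, Ackr4, Cxcr4 and Cxcr6. All 18 ligands had a negative difference, with a median of -1.21, beside -0.0145 over all genes, except that Ccl7 turned positive when libraries were scaled to an equal sum of FPKM. Of the 8 receptors 6 had a positive difference, and under that scaling 7, with Ccr1 added. Without control library 2 of that medium the median of the ligands was -1.88, again with 18 negative, and 7 receptors were positive, Ccr1 among them.

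Among the ligands lower in the labelled knockout of adipogenic medium, Ccl12 fell by 2.37 on the log2(FPKM + 1) scale (SE 0.626, adjusted p = 0.0165). Ccl5 and Cxcl14 had differences of -1.48 and -1.47 (adjusted p = 0.0247 and 0.0136). Cxcl16 had -1.18 (adjusted p = 0.0292) and Cx3cl1 had -1.04 (adjusted p = 0.0168). With these 5 ligands fell the receptor Ccr3, with a difference of -1.46 (SE 0.210, adjusted p = 0.000673). Ackr4 rose by 1.48 (SE 0.202, adjusted p = 0.000518), Cxcr4 by 1.29 (adjusted p = 0.0495), Cxcr6 by 0.60 (adjusted p = 0.00766) and Ackr3 by 0.42 (adjusted p = 0.00936). Cxcl1, Cxcl2 and Cxcl5 had differences of -2.03, -3.16 and -2.90 with SE of 1.25, 1.51 and 1.33, and did not pass (adjusted p = 0.235, 0.132 and 0.119). With control library 2 left out, the 10 differences called were -3.29 for Ccl12, -2.03 for Ccl5, -2.04 for Cxcl14, -1.63 for Cxcl16, -1.34 for Cx3cl1, -1.72 for Ccr3, 1.73 for Ackr4, 1.99 for Cxcr4, 0.75 for Cxcr6 and 0.45 for Ackr3 (adjusted p up to 0.00605). Those of Cxcl1, Cxcl2 and Cxcl5 were then -3.61, -5.14 and -4.83.

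**Figure D5:**
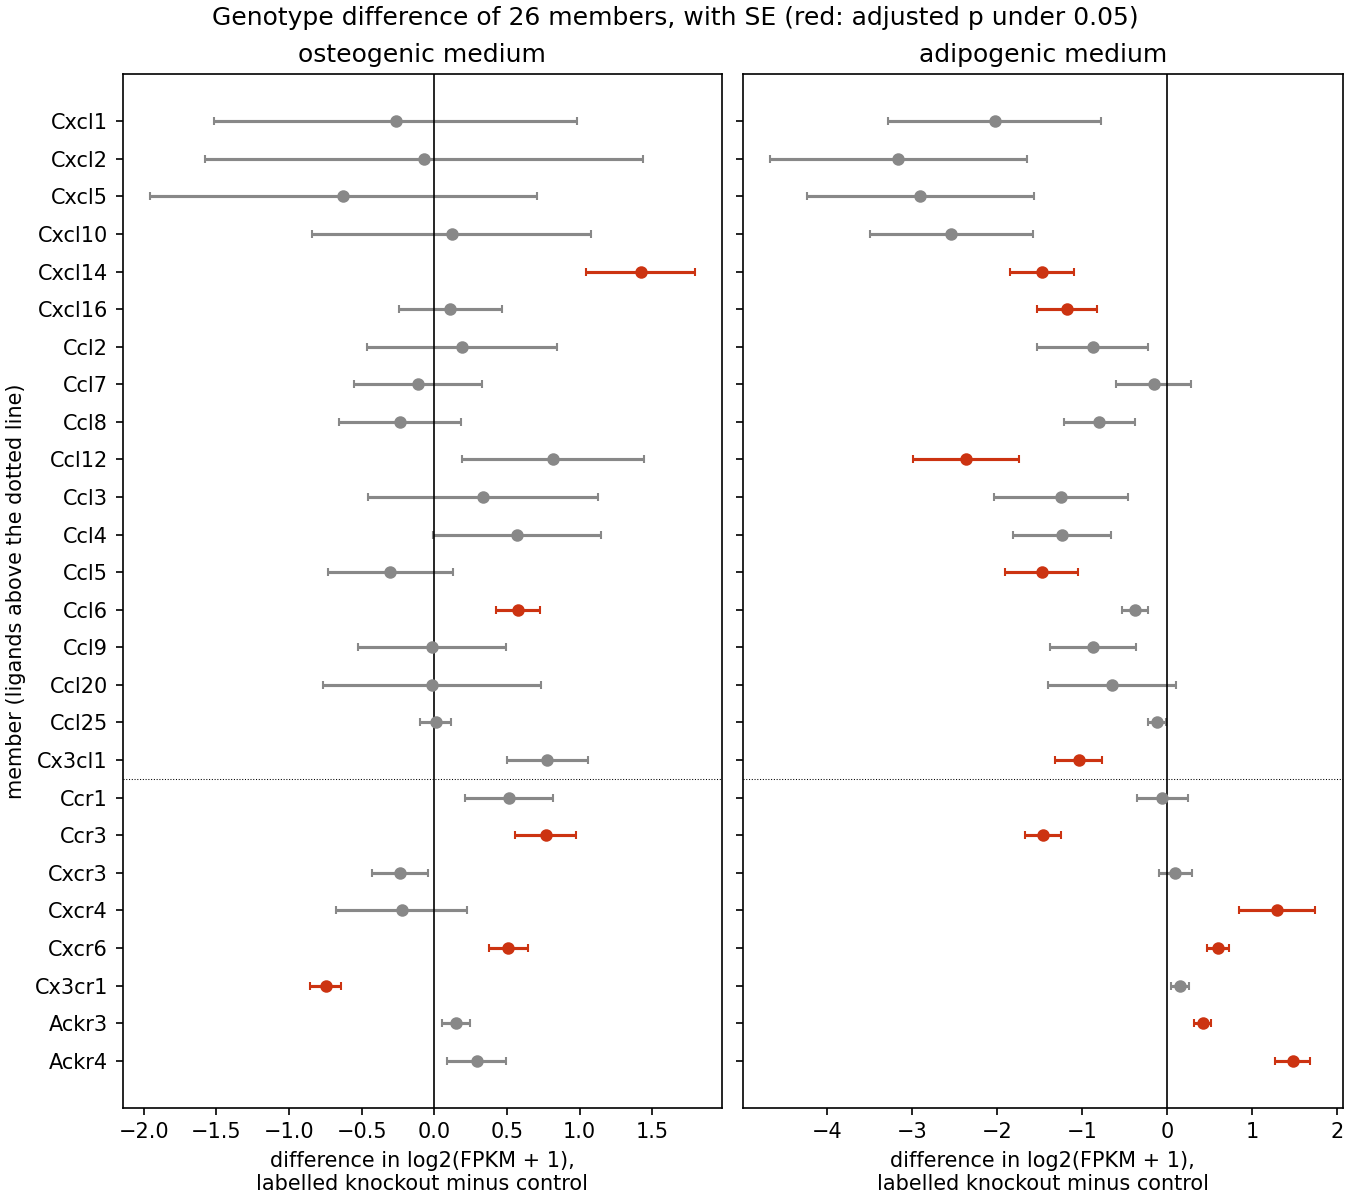
Difference of labelled knockout minus control on the log2(FPKM + 1) scale for 26 members, with SE as bars, in osteogenic (left) and adipogenic medium (right), red where the limma adjusted p was under 0.05. In adipogenic medium all 18 ligands lie left of 0 on this scale, where under scaling to an equal sum of FPKM Ccl7 lies right of it.

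Without control library 2 of adipogenic medium, 17 members were called lower and 4 higher, against 3446 and 3123 of all genes, and Cxcl1, Cxcl2, Cxcl5, Ccl2 and Ccl3 were then among those lower (adjusted p = 0.00632, 0.00173, 0.000176, 0.00757 and 0.000951). Leaving out control library 1 or 3 gave 1 lower and 3 higher each time, and labelled knockout library 2 or 3 gave 2 and 3. Among all genes those 4 fits called 1313 to 1459 lower and 1478 to 1674 higher, also fewer than with all libraries. Without labelled knockout library 1 of that medium 7 members were called lower and 3 higher, against 1873 and 1970 of all genes. The calls of Ackr3, Ackr4, Ccr3 and Cxcr6 were kept in all 12 fits that left out 1 library (adjusted p up to 0.0394), whereas that of Cxcr4 was kept in 1, the fit without control library 2 (adjusted p up to 0.169). Ccl12, Ccl5, Cx3cl1 and Cxcl16 were lost without control library 1 or 3 or labelled knockout library 2 or 3 (adjusted p up to 0.104), and Cxcl14 without control library 1 or 3 (adjusted p up to 0.0531). With no filter Ccl5, Cxcl16 and Cxcr4 were lost (adjusted p up to 0.104), with voom Ccl5 and Ccl12 (adjusted p up to 0.109) and with no trend Cxcr4 (adjusted p = 0.0524). Within the 6 adipogenic libraries alone, Ackr4 was called higher and Ccr3 lower, against 1013 and 658 of all genes. With libraries scaled to an equal sum of FPKM, all genes shifted to a median of 0.160 and their calls from 2153 higher and 2123 lower to 3235 and 895, while the counts of members were 4 higher and 6 lower.

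Macrophage and neutrophil markers were counted for the genotypes in adipogenic medium. By limma, 10 of 18 macrophage markers were called lower and 2 higher in the labelled knockout of adipogenic medium (6 higher and 11 lower without control library 2). Lyz2 fell from 11249 ± 5023 to 4280.5 ± 636 FPKM (SD, n = 3 each). Of the 10 neutrophil markers, 2 passed the filter, S100a8 and Csf3r, and both were called lower, also without that library, while voom called 1 of them. Without that library both were also called lower for the dependence on medium and between media in the labelled knockout. Both were then called higher between media in control cells. With all libraries neither was called in those other comparisons. The summed FPKM of the neutrophil list was 103, 10.6 and 119 in control and 10.2, 6.55 and 6.65 in labelled knockout libraries of adipogenic medium, and 12.0 to 14.9 in osteogenic medium. S100a8 was the most abundant neutrophil marker, S100a9 was listed at 0, and Ly6g, Mpo, Elane and Ngp were at 0.135 FPKM or less. The part of such cells in the chemokine results was not tested for any of the 5 comparisons.

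The third comparison asked whether the genotype difference depended on the medium. For 7 members it did, toward lower values in adipogenic medium for Ccl12, Cxcl14, Ccr3, Cx3cl1 and Ccl6 and toward higher ones for Ackr4 and Cx3cr1. Of the 26 members, 5 were called lower (9.58% of genes were) and 2 higher (10.9% of genes were) for the difference in adipogenic minus that in osteogenic medium. The value was -3.18 for Ccl12, -2.89 for Cxcl14, -2.23 for Ccr3, -1.82 for Cx3cl1 and -0.96 for Ccl6 (adjusted p = 0.0306, 0.00436, 0.000826, 0.01002 and 0.0116). Ackr4 had 1.18 and Cx3cr1 0.90 (adjusted p = 0.0167 and 0.00314). With control library 2 of adipogenic medium left out, the 7 values were -4.10 for Ccl12, -3.46 for Cxcl14, -2.49 for Ccr3, -2.12 for Cx3cl1, -1.16 for Ccl6, 1.44 for Ackr4 and 0.81 for Cx3cr1. Ccr3 and Cxcl14 were called in both media and in opposite directions. Their osteogenic calls were kept in only 2 and 3 of the 12 fits that left out 1 library. Both were also lost with no filter, a replicate block and voom.

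The calls of Ackr4, Ccl6, Ccr3, Cx3cl1, Cx3cr1 and Cxcl14 for the dependence on medium were kept in all 12 fits that left out 1 library (adjusted p up to 0.0449). That of Ccl12 was kept in 3, those without control library 3 of osteogenic medium or without control library 2 or labelled knockout library 1 of adipogenic medium (adjusted p up to 0.0722), and it was also lost with no filter and with voom (adjusted p = 0.0691 and 0.156). When control library 2 of adipogenic medium was left out, 15 members were called lower and 4 higher, against 2895 and 2539 of all genes. With libraries scaled to an equal sum of FPKM, all genes shifted to a median of 0.183 and their calls from 1397 higher and 1233 lower to 1663 and 560, while the counts of members were 2 higher and 5 lower. Of the 18 macrophage markers, 1 was called higher and 3 lower for the dependence on medium, or 6 higher and 9 lower without control library 2.

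The fourth comparison asked how adipogenic and osteogenic medium differed in control cells. In adipogenic medium 7 ligands and Ccr3 were higher beside Cxcl10, and 5 of the 8 receptors were lower. Of the 26 members, 9 were called higher (10.5% of genes were), namely Cxcl10, Ccl12, Ccl4, Ccl5, Ccl9, Cxcl14, Cx3cl1, Cxcl16 and the receptor Ccr3. Cxcl10, Cxcl2 and Ccl20 passed the filter only through adipogenic libraries in which they were high, which sets their direction between media, and their differences are given as a description. Without them 8 members were called higher. A further 5 were called lower (12.3% of genes were), the receptors Cxcr4, Ccr1, Cx3cr1, Cxcr3 and Cxcr6. In adipogenic medium Cx3cr1 reached 1 FPKM only in labelled knockout libraries 1 and 3 (1.06 and 1.12 FPKM). It thus passed the filter only through osteogenic libraries, and Cxcl1 only through adipogenic ones. The filter favours the direction of both between media, and no conclusion is drawn from their calls between media. The median difference was 1.61 over the other 15 ligands, -0.72 over the 8 receptors and 0.00555 over all genes. The 15 ligands still hold Cxcl1 and the 8 receptors Cx3cr1. Positive were 13 of those 15 ligands and negative 7 of the 8 receptors, while Ccl25 turned negative with libraries scaled to an equal sum of FPKM and with voom. Without control library 2 of adipogenic medium the medians were 2.37 and -0.92, and all 15 ligands were positive, Ccl6 and Ccl8 having turned. Of the 18 macrophage markers, 1 was called higher and 8 lower with adipogenic medium in control cells, or 8 higher and 9 lower without that library.

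On the log2(FPKM + 1) scale, Cxcl10 was 3.33 and Cxcl2 4.60 higher with adipogenic medium in control cells, or 4.72 and 6.58 without control library 2 of that medium. Ccl12 and Ccl4 rose by 2.18 each (adjusted p = 0.0337 and 0.0243) and Ccl5 by 1.98 (adjusted p = 0.0115). Ccl9 rose by 1.63 (adjusted p = 0.0442), Cxcl14 by 1.44 (adjusted p = 0.0225), Cx3cl1 by 1.22 (adjusted p = 0.0136) and Cxcl16 by 1.10 (adjusted p = 0.0499). The receptor Ccr3 rose by 1.56 (SE 0.210, adjusted p = 0.00129). Of the receptors that fell, Cxcr4 had a difference of -1.996 (SE 0.450, adjusted p = 0.0134), Ccr1 -1.46 (adjusted p = 0.00925) and Cx3cr1 -1.40 (SE 0.109, adjusted p = 9.88e-05). As the filter favours the direction of Cx3cr1 between media, its value is given as a description. Cxcr3 had -0.92 (adjusted p = 0.0107) and Cxcr6 -0.53 (adjusted p = 0.0205). Ccl3, Cxcl5 and Cxcl1 had differences of 2.38, 3.84 and 3.53 and did not pass (adjusted p = 0.0546, 0.0618 and 0.0654). When control library 2 of adipogenic medium was left out, the differences called were 3.102 for Ccl12, 2.98 for Ccl4, 2.54 for Ccl5, 2.37 for Ccl9, 2.01 for Cxcl14, 1.52 for Cx3cl1, 1.55 for Cxcl16, 1.82 for Ccr3, -2.69 for Cxcr4, -1.76 for Ccr1, -1.31 for Cx3cr1, -1.14 for Cxcr3 and -0.69 for Cxcr6 (adjusted p up to 0.000650). Those of Ccl3, Cxcl5 and Cxcl1 were then 3.50, 5.77 and 5.11 and passed (adjusted p up to 0.000912), where the filter favours the direction of Cxcl1.

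Among control cells, 16 members were called higher and 6 lower without control library 2 of adipogenic medium (13 higher when Cxcl2, Cxcl10 and Ccl20 are not counted), against 3155 and 3001 of all genes. Cxcl1 is among these 13 and Cx3cr1 among the 6, with directions that the filter favours. Without control library 1 or 3 of that medium 2 were called higher and 3 lower each time, against 591 and 803 of all genes without library 1 and 566 and 795 without library 3. The counts were 3 and 4 without control library 1 or 2 of osteogenic medium (beside 618 and 850 or 589 and 834 of all genes) and 4 and 4 without control library 3 (beside 670 and 919). The calls of Ccl5, Ccr1, Ccr3, Cx3cr1 and Cxcr3 were kept in all 12 fits that left out 1 library (adjusted p up to 0.0470), while Ccl9 and Cxcl16 were kept in 2 each, those without control library 2 or labelled knockout library 1 of adipogenic medium (adjusted p up to 0.174). Cxcl10 and 6 others were lost without control library 1 or 3 of adipogenic medium (adjusted p up to 0.121). Of these 7, Ccl4, Ccl12, Cxcl10 and Cxcr6 were also lost without any single control library of osteogenic medium, Cxcl14 without control library 1 or 2 of it, and Ccl12 and Cxcl10 without any labelled knockout library of it. With no filter Cxcl10, Ccl12, Ccl4, Ccl9, Cxcl14, Cxcl16 and Cxcr6 were lost, as were Cxcl10, Ccl12 and Ccl4 with voom (adjusted p of the members other than Cxcl10 up to 0.155). Cxcl16 was lost as well with a pseudocount of 0.1 and with no trend (adjusted p = 0.0507 and 0.0533). Within the 6 control libraries alone, only Ccr1, Ccr3 and Cx3cr1 were kept of the 14 calls, and 1 member was called higher and 2 lower, against 178 and 312 of all genes. Scaling to an equal sum of FPKM shifted all genes to a median of -0.118 and their calls from 1354 higher and 1581 lower to 651 and 1455, while the counts of members were 9 higher and 5 lower, Cxcl16 no longer passing (adjusted p = 0.0551), or 7 higher when Cxcl2, Cxcl10 and Ccl20 are not counted.

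The fifth comparison asked the same of the libraries labelled knockout. Of the 8 receptors 5 were lower in adipogenic medium, as were the ligands Cxcl14 and Ccl6, and Ackr4 was higher. Of the 26 members, 7 were called lower (14% of genes were) and 1 was called higher (13.9% of genes were). Ackr4 rose by 1.02 (SE 0.202, adjusted p = 0.00435), to 2.65 times the osteogenic mean. Ccr1 fell, with a difference of -2.03 (SE 0.300, adjusted p = 0.000886), as did Cxcl14 with -1.45 (adjusted p = 0.0165) and Ccl6 with -1.11 (SE 0.151, adjusted p = 0.000560). Smaller differences were those of Ccr3 (-0.67), Cxcr3 (-0.59), Cx3cr1 (-0.50) and Cxcr6 (-0.44), with adjusted p of 0.00729 to 0.0475. As between media in control cells, the filter favours the direction of Cx3cr1, whose value is given as a description. The median difference was 0.37 over the 15 ligands other than Cxcl2, Cxcl10 and Ccl20, -0.49 over the receptors and 0.00401 over all genes. These 15 ligands still hold Cxcl1, and the receptors hold Cx3cr1. Of the 18 macrophage markers, 5 were called lower and none higher between media in the labelled knockout (4 lower under scaling to an equal sum of FPKM), or 1 higher and 12 lower without control library 2 of adipogenic medium.

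In the labelled knockout the calls of Ackr4, Ccl6, Ccr1 and Cx3cr1 were kept in all 12 fits that left out 1 library (adjusted p up to 0.0304). The call of Cxcl14 was lost without labelled knockout library 3 of osteogenic or labelled knockout library 1 of adipogenic medium (adjusted p up to 0.0524). Cxcr6 was lost without labelled knockout library 2 or 3 of osteogenic or any of adipogenic medium (adjusted p up to 0.1096). Ccr3 was kept in 5 of the 12 fits and Cxcr3 in 3 (adjusted p up to 0.157), and both were lost without control library 1 or 2 of osteogenic medium, any labelled knockout library of it, or labelled knockout library 1 or 3 of adipogenic medium. Cxcr3 was lost as well without control library 3 of either medium. The count of members called was 4 without labelled knockout library 3 of osteogenic medium (1 higher and 3 lower, against 1332 and 1295 of all genes) and 14 without control library 2 of adipogenic medium (4 higher and 10 lower, against 2664 and 2802 of all genes), which enters only through the shared estimate of the spread. With no filter Ccr3, Cxcr3 and Cxcr6 were lost (adjusted p up to 0.103), with voom Ccr3 (adjusted p = 0.0580) and with a pseudocount of 0.1 Cxcr3 and Cxcr6 (adjusted p up to 0.0823). Scaling to an equal sum of FPKM gave 1 member higher and 5 lower, with Cxcr3 and Cxcr6 no longer passing (adjusted p = 0.132 and 0.150), and moved the calls of all genes from 1785 higher and 1807 lower to 1654 and 885. The comparisons of media share libraries with those of genotypes.

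Of the members under the filter, those just outside it were Cxcl3, an ELR ligand, with 6.51 and 8.38 FPKM in control libraries 1 and 3 of adipogenic medium and no more than 0.350 FPKM elsewhere, and Cxcl9, an interferon-induced ligand, with 4.20 and 2.03 FPKM in the same libraries. Just inside it were Cxcl2, Cxcl10 and Ccl20, with 3 libraries of at least 1 FPKM each. Ccr2, the receptor of Ccl2, was at 0.218 FPKM or less and Cxcr2, the receptor of ELR ligands, at 0.0181 FPKM or less. The 12 members listed at 0 were Ccl26, Ccr8, Xcl1, 2 copies of Ccl19, 2 of Ccl21a, 3 of Ccl21b, 1 of Ccl21c and 1 of Ccl27. Several of these have near-identical copies, so their values are uncertain. For a gene with 1 kilobase of exons, 3 fragments came to 0.143 to 0.185 FPKM, counting error only.

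By GENCODE M21 on GRCm38, 10 of the 18 ligands past the filter lie on chromosome 11. Ccl2, Ccl7, Ccl12 and Ccl8 lie between 82035571 and 82116799 there, and Ccl5, Ccl9, Ccl6, Ccl3 and Ccl4 between 83525778 and 83664683. On chromosome 5, Cxcl5, Cxcl1 and Cxcl2 lie between 90759360 and 90905938 and Cxcl10 between 92346638 and 92348889. Of the 8 receptors, 5 lie on chromosome 9, with Cxcr6, Ccr1 and Ccr3 between 123806475 and 124031689. Neighbours differed in level, as Ccl2 and Ccl8 or Ccr1 and Ccr3 did.

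Genes that transmit chemokine signals were counted in the same way. Counts with all libraries and no scaling are followed by the shares of all genes called higher and lower. For counts under scaling or without control library 2 of adipogenic medium, the calls of all genes are those given with each comparison above. Of 60 such genes 59 were tested. In osteogenic medium 1 higher and 9 lower were called in the labelled knockout (beside 4.94% and 4.15% of all genes), with a median difference of -0.0903, or 6 lower and none higher under scaling to an equal sum of FPKM. In adipogenic medium the counts were 6 higher and 27 lower (beside 16.7% and 16.5% of all genes), with a median of -0.297, which became 11 higher and 19 lower, with a median of -0.124, under scaling to an equal sum of FPKM. For the dependence on medium 6 higher and 12 lower were called (beside 10.9% and 9.58% of all genes), or 9 higher and 6 lower under that scaling. Between media the counts were 11 higher and 7 lower in control (beside 10.5% and 12.3% of all genes) and 4 higher and 13 lower in labelled knockout libraries (beside 13.9% and 14% of all genes), or 7 higher and 7 lower and 6 higher and 7 lower under that scaling. Leaving out control library 2 of adipogenic medium raised these counts to 6 higher and 17 lower for the genotypes in osteogenic and 8 higher and 40 lower in adipogenic medium. It gave 9 higher and 36 lower for the dependence on medium, and between media 32 higher and 9 lower in control and 10 higher and 17 lower in labelled knockout libraries.

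The most abundant of the signalling genes were Cdc42, Gnai2 and Akt1. They averaged 237 ± 20.5, 216 ± 12.7 and 102 ± 4.10 FPKM for control and 201 ± 5.05, 189 ± 2.15 and 109 ± 3.26 FPKM for labelled knockout libraries of adipogenic medium (SD, n = 3 each). Cdc42 and Gnai2 were called lower in the latter (limma adjusted p = 0.0155 and 0.0112). Akt1 did not pass (adjusted p = 0.111) but was called higher without control library 2 (adjusted p = 0.0144).

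Genes of the inflammatory pathways that induce chemokines were all tested, 50 of 50. In osteogenic medium 5 were called lower and none higher in the labelled knockout (beside 4.15% and 4.94% of all genes), with a median of -0.0528, or 2 lower under scaling to an equal sum of FPKM. In adipogenic medium the counts were 4 higher and 12 lower (beside 16.7% and 16.5% of all genes), with a median of -0.498, which became 4 higher and 6 lower, with a median of -0.343, under scaling to an equal sum of FPKM. For the dependence on medium the counts were 5 higher and 4 lower (beside 10.9% and 9.58% of all genes), or 5 higher and 2 lower under that scaling. Between media they were 10 higher and 5 lower in control (beside 10.5% and 12.3% of all genes) and 7 higher and 4 lower in labelled knockout libraries (beside 13.9% and 14% of all genes), or 7 higher and 4 lower and 5 higher and 2 lower under that scaling. Leaving out control library 2 of adipogenic medium gave 2 higher and 8 lower for the genotypes in osteogenic and 3 higher and 38 lower in adipogenic medium, with a median of -0.824 in the latter. It gave 6 higher and 27 lower for the dependence on medium, and between media 35 higher and 5 lower in control and 14 higher and 7 lower in labelled knockout libraries. Their summed FPKM was 2686, 946 and 2583 in control and 1618, 921 and 949.6 in labelled knockout libraries of adipogenic medium.

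In adipogenic medium Tnfrsf1b (a receptor of tumor necrosis factor) had 391, 66.1 and 377 FPKM in control and 106, 40.4 and 40.8 FPKM in labelled knockout libraries 1 to 3. Its difference was -1.91 (limma adjusted p = 0.0343), or -2.75 without control library 2. In adipogenic medium Cd14 (a receptor for lipopolysaccharide that is also in the macrophage list) had 269, 26.2 and 267 FPKM in control and 121, 32.4 and 37.8 FPKM in labelled knockout libraries 1 to 3. Its difference of -1.21 did not pass (limma adjusted p = 0.262), while that of -2.31 without control library 2 did (adjusted p = 0.00150). Both were highest in control libraries 1 and 3 and labelled knockout library 1, as Cxcl1 and Ccl2 were. Tnfrsf1a averaged 87.0 ± 8.01 and 75.0 ± 0.879 FPKM in adipogenic medium, control first (SD, n = 3 each), with a difference of -0.21 (limma adjusted p = 0.0219), or -0.28 without that library.

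Markers of other cell types were summed in each library. Of 10 lymphocyte and NK cell markers 2 passed the filter, led by Il7r, then Cd4, and Cd3e, Cd3d, Cd8a and Nkg7 were at 0, with a summed FPKM of 13.4 to 25.5. Of 6 dendritic cell markers Batf3 passed and Siglech was at 0, with a sum of 0.780 to 2.68, and of 6 mast cell and basophil markers Mcpt8 passed and Mcpt4, Fcer1a and Tpsb2 were at 0, with a sum of 6.79 to 22.2. Mcpt8, Batf3 and Cd4 were called lower in the 3 comparisons in which Ccr3 was lower too. Their differences were -1.004, -0.87 and -0.62 for the genotypes in adipogenic medium, -1.42, -0.93 and -1.005 for the dependence on medium and -1.30, -0.60 and -1.18 between media in the labelled knockout (limma adjusted p up to 0.00465). Without control library 2 of adipogenic medium the first 6 were -1.23, -0.93, -0.57, -1.64, -0.99 and -0.96, and all 9 calls were kept. Il7r, the other lymphocyte marker tested, was not called in these 3 comparisons with all libraries. Ccr3 was called higher for the genotypes in osteogenic medium and between media in control cells. There Mcpt8 (0.42 and 0.13) and Batf3 (0.061 and 0.33) were not called with all libraries. In osteogenic medium Cd4 was called higher in the labelled knockout (0.39), and Il7r was called lower with adipogenic medium in control cells (-0.62, or -0.88 without that library), neither of them under scaling to an equal sum of FPKM. Leaving out that library added higher calls of Mcpt8 in the labelled knockout of osteogenic medium, of Mcpt8 and Batf3 with adipogenic medium in control cells and of Il7r for the dependence on medium, and a lower call of Il7r in the labelled knockout of osteogenic medium. The 5 erythroid markers were under the filter, Hbb-bs at 0, with a sum of at most 0.395. The part of these cell types in the chemokine results was not tested.

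Markers of stromal and endothelial cells were summed too. Of 8 endothelial markers 5 passed, led by Vwf, Cdh5 and Kdr, with a sum of 5.61 to 12.9, and 3 were called higher in the labelled knockout in each medium (4 higher and 1 lower in adipogenic medium without control library 2). Of 12 mesenchymal markers tested, led by Col1a1, Itgb1 and Col1a2, 4 were called higher in the labelled knockout in osteogenic medium (1 under scaling to an equal sum of FPKM), and 4 higher and 1 lower in adipogenic medium. These counts were 7 higher and 1 lower and 5 higher and 4 lower without control library 2 of adipogenic medium. Osteoblast markers, led by Alpl, Sp7 and Runx2, had 5 of 6 past the filter and a sum of 12.1 to 64.6, highest in control libraries 1 and 3 of adipogenic medium. In the labelled knockout 1 was called lower in osteogenic medium (none under scaling to an equal sum of FPKM) and 3 were called higher in adipogenic medium (4 higher and 1 lower without control library 2). Adipocyte markers, led by Cd36, Cebpa and Lpl, had 5 of 7 past the filter and a sum of 238 to 430.0, and Adipoq and Plin1 were at 0.600 FPKM or less. In the labelled knockout 2 adipocyte markers were called lower in osteogenic medium (1 under scaling to an equal sum of FPKM), and 2 higher and 1 lower in adipogenic medium (4 higher and 1 lower without control library 2).

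The same markers were counted in the other 3 comparisons, with the counts without control library 2 of adipogenic medium in parentheses. Endothelial markers had 2 lower (2 higher and 2 lower) for the dependence on medium, 1 higher and 1 lower (3 higher and 1 lower) between media in control and 1 higher and 1 lower (1 higher and 2 lower) in labelled knockout libraries, and mesenchymal markers 2 higher and 2 lower (2 higher and 5 lower) for the dependence on medium, 6 higher (6 higher) between media in control and 6 higher and 2 lower (6 higher and 4 lower) in labelled knockout libraries. Osteoblast markers had 2 higher (4 higher and 1 lower) for the dependence on medium, 2 higher and 1 lower (2 higher and 2 lower) between media in control and 5 higher (5 higher) in labelled knockout libraries, and adipocyte markers 2 higher and 1 lower (4 higher and 1 lower) for the dependence on medium, 3 lower (1 higher and 4 lower) between media in control and 2 higher and 1 lower (2 higher and 1 lower) in labelled knockout libraries. Under scaling to an equal sum of FPKM, the mesenchymal counts were 3 higher and 1 lower for the dependence on medium, and between media 2 higher and 1 lower in control and 5 higher and 3 lower in labelled knockout libraries. Between media in the labelled knockout 1 endothelial marker was then called higher and none lower, and 1 higher and 1 lower adipocyte markers. The part of these cells in the chemokine results was not tested either.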

How the data were processed

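RNA of 12 cultures was sequenced by the authors, who deposited 1 table of FPKM per gene and library, the unit used here. NEBNext libraries were read on an Illumina HiSeq. The submitters' processing notes name mm9 and Bowtie 0.12.2, and the study's list of software names HISAT2 and Ballgown without saying for which data. The use of strand is not given in the sources used here. Libraries were grouped by their labels.

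Of 54532 Ensembl identifiers, 54495 had a match in GENCODE M21 (GRCm38), the source of coordinates. Fragments were recovered from FPKM and exonic lengths, and 98.2% to 98.4% of values under 30 fragments were whole within 0.02. All 12 libraries entered 1 limma 3.58.1 fit (R 4.3.3) on log2(FPKM + 1), a scale that understates changes of low genes. The fit had a mean-variance trend and 2-sided tests. It covered the 12871 genes that reached 1 FPKM in 3 or more libraries, with Benjamini-Hochberg adjustment over all of them at 0.05. The code was tested on simulated data that had the same spread in every group. That test cannot tell how the fit behaves with the unequal spread of these groups. Promoters came from RefSeq. Figures used Python 3.11.15, numpy 2.4.6, pandas 2.3.3 and matplotlib 3.10.9.

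Of the genes that meet the rule for members, 1 is not reported here. Members and lists were chosen with earlier results of these data known. Members past the filter were named with their level in each group, and those called with a difference of at least 1, and every receptor, with each library's value. Values by library of Cxcl1, Cxcl2, Cxcl5, Ccl2, Ccl3 and Ccl20 were added after they were seen, as were genes named outside these rules. From other lists the 3 genes of highest mean were named. Alternatives were a pseudocount of 0.1, no filter, libraries scaled to an equal sum of FPKM (TPM) or by median ratios, no trend, only the groups compared, a replicate block and each library left out in turn. Voom in limma on the recovered fragments was chosen after seeing the data.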

Additional observations from a re-analysis of the deposited data

Results flagged for a closer look

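For 7 members the genotype difference in adipogenic medium differed from that in osteogenic medium by limma's test of the interaction. The value is the difference of the differences on the log2(FPKM + 1) scale, labelled knockout minus control, adipogenic minus osteogenic medium. It was -3.18 for Ccl12, -2.89 for Cxcl14, -2.23 for Ccr3, -1.82 for Cx3cl1 and -0.96 for Ccl6. It was 1.18 for Ackr4 and 0.90 for Cx3cr1. In the order just given, the values were -4.10, -3.46, -2.49, -2.12, -1.16, 1.44 and 0.81 without control library 2 of adipogenic medium. The call of Ccl12 was lost in 9 of the 12 fits that left out 1 library, with no filter and with voom (adjusted p up to 0.156), while the 6 others were kept in all 12 fits.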

How the results depend on the processing

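The 44 member calls over the 5 comparisons kept their sign under every alternative run. Each run used libraries on which these calls were chosen, which favours a kept sign. Among the 44 calls, that of Cxcl10 between media has its sign from the filter, which also favours the sign of those of Cx3cr1 between media. Of the 44, 20 stayed under an adjusted p of 0.05 in all 12 fits that left out 1 library. Median-ratio scaling kept 44, no trend 42, a pseudocount of 0.1 40, an equal sum of FPKM (TPM) 40, voom 35 and no filter, with 30520 genes tested, 26. With only the groups compared, 18 of 37 were kept. The cause of these changes was not tested.

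The counts of members called were 5, 10, 7, 14 and 8 for the genotypes in osteogenic and in adipogenic medium, their difference between media, and the media in control and in labelled knockout libraries. With 1 library left out they ranged from 1 to 7, from 4 to 21, from 6 to 19, from 5 to 22 and from 4 to 14. Each highest count was that without control library 2 of adipogenic medium. Of these fits, that one also called the most of all genes (in the same order 1469 higher and 1385 lower, 3123 and 3446, 2539 and 2895, 3155 and 3001, 2664 and 2802). The lowest counts came from fits that also called fewer of all genes than the fit of all libraries. With only the groups compared, the counts of members were 13 for the genotypes in osteogenic and 2 in adipogenic medium and 3 for the media in control libraries. All genes then had 1677 higher and 1741 lower, 1013 and 658, and 178 and 312. With no filter, 1 was called for the genotypes in osteogenic medium and 7 and 5 for the media in control and in labelled knockout libraries, where all genes went from 636 higher and 534 lower to 515 and 366, from 1354 and 1581 to 893 and 1147 and from 1785 and 1807 to 1727 and 1550. With voom, 3 were called for the genotypes in osteogenic medium, beside 656 higher and 551 lower of all genes. All other counts were within 1.5 times those given first, apart from those of the replicate block.

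With a replicate block, 2 members were called for the genotypes in osteogenic medium and 9 for the media in control libraries, beside 433 higher and 311 lower and 857 higher and 1086 lower of all genes, and 33 of the 44 calls were kept, 1 of the 5 osteogenic ones among them. Deviations of same-numbered libraries had an r of -0.0375, 0.0576 and -0.0295 between the genotypes in osteogenic medium, of 0.466, 0.397 and -0.286 in adipogenic medium, and of -0.0558 to 0.0859 between media. The numbers were not treated as pairs, since not every r was over 0.1 and no label says whether same-numbered libraries share a mouse or a day.

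Depth limits the members with the fewest fragments in their lowest library, which were 0 for Ccl20, 1 for Cxcl10, 3 for Cxcl2, 6 for Ccl8, 9 for Ccl5, 14 for Cxcl1 and 15 each for Ccl12, Cxcl5 and Cxcr6.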
